A study of Rattus norvegicus with 8 samples.

Results

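The 7 genes Otof, Pcdh15, Adgrv1, Cdh23, Whrn, Myo7a and Tmc1 are known for their work in the hair cells of the inner ear, and their transcripts were followed here through the neurons of the rat nodose ganglion, the sensory ganglion of the vagus nerve. They were selected by symbol from the 30560 genes of the deposited gene list, and each symbol had 1 entry. The selection was made because earlier results of these data had shown some of them in particular neuron types. Their levels across neuron types are therefore given as a description, without a test, and the tests below compare left with right ganglia and male-labelled with female-labelled pools, which had no part in the selection. Single nuclei came from naive Long Evans rats aged 8 weeks, 18 of each sex. Each of 12 pools combined the ganglia of 1 side from 6 rats, with 3 pools each for male left (ML), male right (MR), female left (FL) and female right (FR). Left and right pools of a sex draw on the same 18 rats. P-values weigh a difference against the spread between these pools, and the main tests by side did not pair left with right pools.

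A hair cell turns deflection of its bundle of stereocilia into an electrical signal. Tip links made of the cadherins Cdh23 and Pcdh15 pull on a channel that contains Tmc1, and the motor protein Myo7a anchors and positions parts of this machinery. Adgrv1, a very large adhesion receptor, and Whrn, a scaffold with PDZ domains, belong to the ankle links at the base of the stereocilia. Otof, a ferlin with several calcium-binding C2 domains, drives release of vesicles at the ribbon synapse of hair cells. Vagal sensory neurons signal stretch and chemical stimuli from the viscera and develop from 2 sources: nodose neurons come from a placode, and jugular neurons, which express Prdm12, come from the neural crest.

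The files held 36741 nuclei with 139965360 unique transcripts (UMIs), and 36738 nuclei were kept. Neuron-like nuclei numbered 25629, between 50.5% and 82.8% of a pool, with 4897228 to 14303358 UMIs per pool, and fell into 25 subclusters numbered by size. In 6 of these, with 2691 nuclei together, Prdm12 stood at 20 counts per 1000000 UMIs (CPM) or more. They are called the Prdm12 subclusters below, and the other 19 had less Prdm12, at most 16.1 CPM in n14. Satellite glia (3881 nuclei) and myelinating Schwann cells (2421) serve as the comparison for free RNA, and Snap25, a neuronal gene, stood at 1214 and 464 CPM in them against 1679 in neurons. Y-linked transcripts went against the label in ML1 (2.88 CPM) and FL1 (88.6 CPM), so that sex is written as labelled and changes by sex are also given without both pools. Of 34798 barcode well combinations, 1865 occurred in more than 1 sublibrary.

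Otof, Pcdh15 and Adgrv1 were the members most often counted in neurons as a whole. UMI counts are not per length, so levels are compared within a gene and not between genes. Otof had 5425 UMIs (56.2 CPM), Pcdh15 4373 (45.3 CPM) and Adgrv1 6868 (71.1 CPM). Whrn followed with 1161 UMIs (12 CPM). Cdh23 (162 UMIs), Tmc1 (103 UMIs) and Myo7a (64 UMIs) were close to the limit of detection, at 1.68, 1.07 and 0.663 CPM, and no neuron held more than 2 UMIs of any of these. The heat map of levels by subcluster shows that Otof, Pcdh15 and the pair Adgrv1 and Whrn each had high points of their own.

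**Figure D1:**
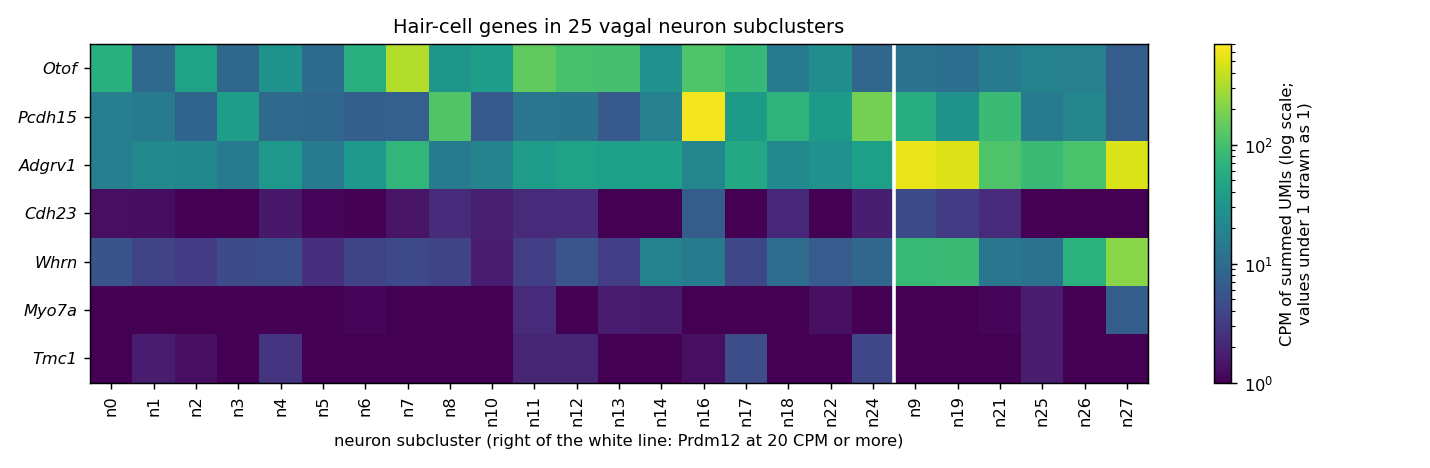
Level of each gene (rows) in each neuron subcluster (columns) as CPM of summed UMIs on a logarithmic colour scale, with the 6 Prdm12 subclusters on the right. Otof is highest in n7 (329 CPM), Pcdh15 in n16 (627 CPM), Adgrv1 in n9 (563 CPM) and Whrn in n27 (216 CPM), while Cdh23, Myo7a and Tmc1 stay dark nearly throughout.

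Otof, the vesicle release protein, was highest in subcluster n7, which was led by Edn3 (endothelin 3), Chrdl1 (an antagonist of bone morphogenetic proteins), AABR07026805.1, Kcng1 (a modifying potassium channel subunit) and Chodl. In n7 the level was 329 CPM (95% counting interval 312 to 347), and the pools ranged from 282 to 385 CPM (328 ± 30.5, SD, n = 12). The pool values were 348, 305 and 307 in ML1 to ML3, 318, 282 and 348 in MR1 to MR3, 356, 305 and 385 in FL1 to FL3, and 359, 328 and 301 in FR1 to FR3. No pool stood apart, and the 4 groups overlapped. In all other neurons of the same pools Otof stood at 34.4 to 49.8 CPM, so that n7 was 6.23 to 8.87 times higher in each pool. The n7 nuclei made up 5.26% of neurons and held 25.5% of neuronal Otof UMIs. At least 1 Otof UMI was seen in 51% of n7 nuclei, and in 24.5% after thinning each nucleus to 1000 UMIs (55 of 1347 were shallower and left out). Satellite glia gave 7.34% and, thinned, 3.76%, at a median of 1613 UMIs against 2633 in n7. Neurons held 70.2% of all Otof UMIs. Nuclei of clusters left unnamed stood at 45.5 to 91.4 CPM over pools, against 42.6 to 62.7 CPM in neurons as a whole.

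Below n7, Otof was next highest in n11 (143 CPM, 140 ± 24.4 over pools), n16 (116 CPM), n12 (105 CPM) and n13 (101 CPM). The SD ranges of n7 and n11 did not meet, whereas from n11 downwards the SD ranges of neighbours in this order met at every step that had pool values, so that the lower levels form a gradient. n11 was led by Spon1 and Tacr1, the receptor of substance P, and n12 and n13 shared Gdpd4, Cysltr2 and Col6a5 among their leading genes. Otof was lowest among the larger subclusters in n5 (10.1 CPM), n1 (9.38 CPM) and n3 (8.94 CPM), which was led by Xylt1 and carried Cckar and Sctr, receptors of gut hormones. The Prdm12 subclusters together stood at 12.6 CPM. These low values were under the 15.8 CPM of Schwann cells and the 40.5 CPM of satellite glia. Other subclusters, among them n10 (38.5 CPM) and n8 (31.7 CPM), were also under satellite glia. The part of free RNA in these values was not tested.

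Pcdh15, the lower part of the tip link, was concentrated in n16, a small subcluster led by AABR07058412.1, Pcdh15 itself, Ndst4 (a heparan sulfate modifying enzyme), Nxph1 (a neurexin ligand) and Dok5. Its level there was 627 CPM (interval 599 to 656), against 20.6 to 34.1 CPM in all other neurons of a pool. The pools stood at 574, 1069 and 991 CPM (ML1 to ML3), 585, 823 and 483 (MR1 to MR3), 345, 378 and 522 (FL1 to FL3), and 599, 588 and 670 (FR1 to FR3). All 12 were above the other neurons of their pool, by 14.5 to 41.8 times, with a mean of 636 ± 223 CPM (SD, n = 12), and the highest was ML2 and the lowest FL1. n16 held 2.92% of neurons and 44.2% of neuronal Pcdh15 UMIs, and 1 neuron had 57 UMIs of the gene. The next levels were 176 CPM in n24, 117 in n8 and 85.9 in n21. The SD ranges of n16 and n24 did not meet, and those of n24, n8 and n21 met in turn.

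The plot of each gene in its high group and in the remaining neurons sets these pool values side by side.

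**Figure D2:**
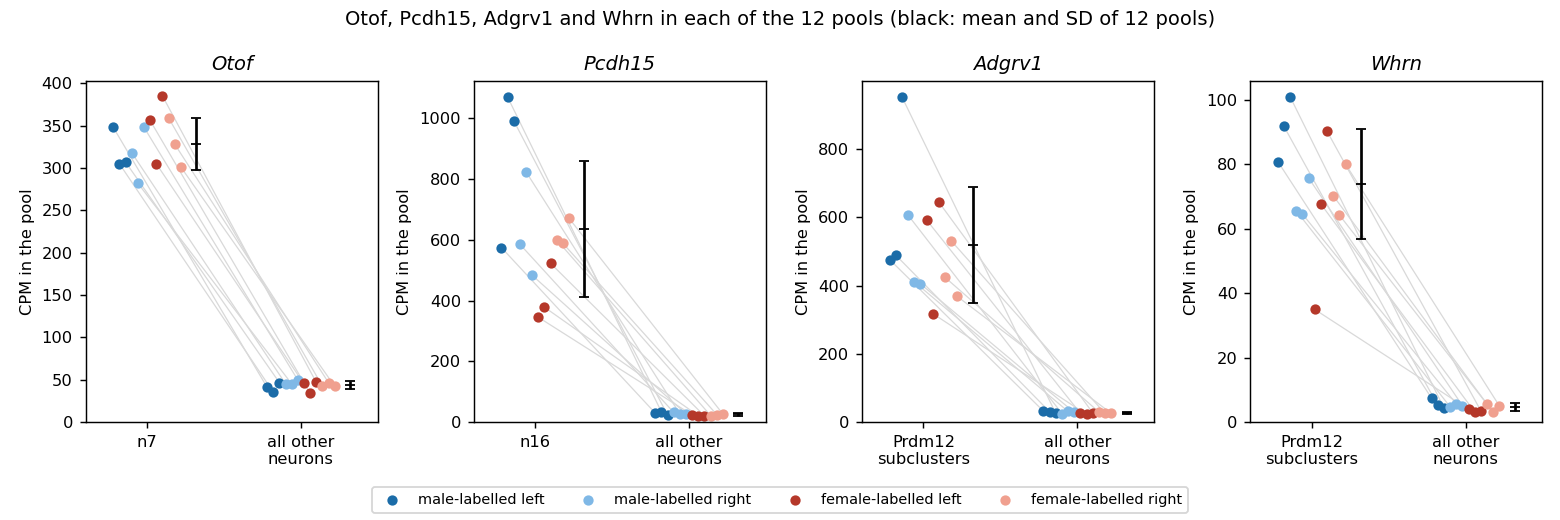
CPM in each of the 12 pools (points, coloured by labelled sex and side, joined within a pool) for Otof in n7, Pcdh15 in n16, and Adgrv1 and Whrn in the Prdm12 subclusters, each beside all other neurons of the pool. Otof in n7 lies between 282 and 385 CPM, Pcdh15 in n16 spreads from 345 to 1069 CPM, and every point of a high group lies above all points of the other neurons. Black bars are the mean and SD of 12 pools.

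Subcluster n16 was not uniform. When neurons were clustered at resolution 2 with all 7 genes and the hair-cell lists left out of the gene set, 316 of its 749 nuclei fell into 1 group of 317 nuclei, and the 433 other n16 nuclei were compared with it. This group was picked for its Pcdh15 level, the highest among the larger groups of that clustering. The Pcdh15 difference is therefore a description and no evidence for the division. Pcdh15 stood at 1227 CPM (1863 UMIs, in 79.5% of nuclei) in the first group and at 44.1 CPM (69 UMIs, in 7.62%) in the second. Otof ran the other way, at 17.1 CPM (26 UMIs) in the first and 211 CPM (330 UMIs, in 44.8% of nuclei) in the second. Over the 8 pools with 20 or more nuclei in the first group, Pcdh15 stood at 925 to 1835 CPM (1324 ± 336, SD), and over the 10 such pools of the second at most at 101 CPM (38.5 ± 36.2, SD). Nuclei of the Pcdh15-rich group were deeper (median 3981 against 2980 UMIs), while their Otof was lower.

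Within n16, both genes were seen in 28 nuclei, and 9.82% of the 285 nuclei with Pcdh15 also had Otof, against 28.4% of all n16 nuclei. Besides Pcdh15, the Pcdh15-rich group was led by Nxph1 (857 against 27.5 CPM), Ndst4 (585 against 18.5), ENSRNOG00000003756 (155 against 2.56) and Ano1, a calcium-activated chloride channel (183 against 6.39). Besides Otof, the other n16 nuclei were led by Marchf1 (486 against 31.6 CPM), Rgs20 (191 against 15.8), Rgs9 (249 against 24.4) and Nrp2, a semaphorin receptor (311 against 31.6). Tmc3, a relative of Tmc1, was also higher in the Otof-rich nuclei, at 637 against 131 CPM. Cdh23, the partner of Pcdh15 in the tip link, had 18 UMIs in the Pcdh15-rich group (11.9 CPM, interval 7.03 to 18.7), out of 162 in all neurons, and 3 UMIs in the other n16 nuclei. The mechanosensitive channel Piezo2 was high in both, at 1326 and 1051 CPM against 309 in all neurons. The Pcdh15-rich group took 33.3% to 51.4% of n16 nuclei in each pool, so both groups occurred in all 12.

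**Figure D3:**
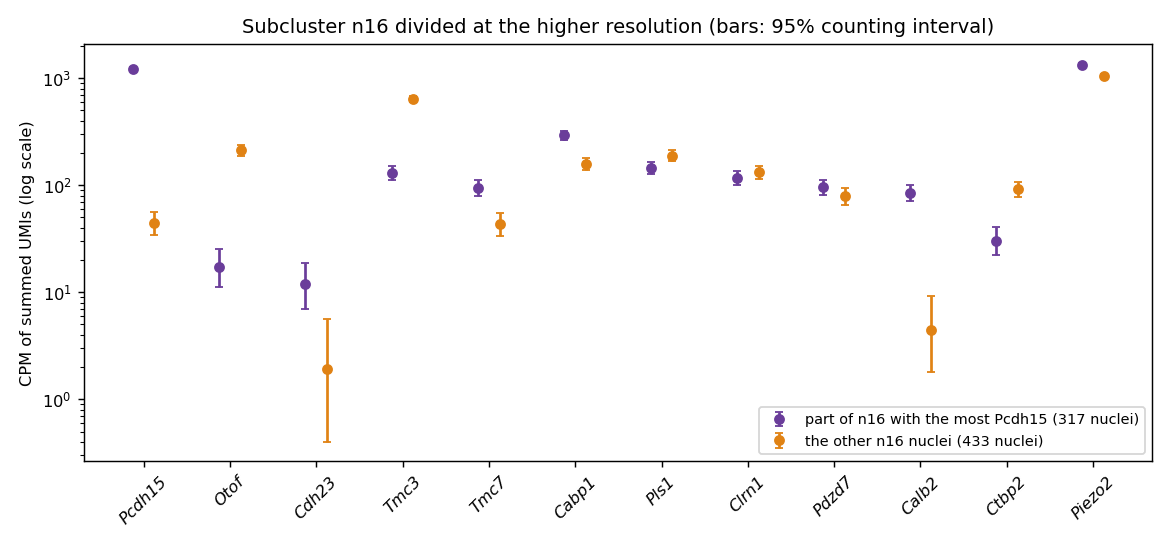
CPM of summed UMIs (log scale, bars are 95% counting intervals, which cover counting error only) for Pcdh15, Otof, Cdh23 and 9 list genes in the Pcdh15-rich part of n16 (317 nuclei) and in its other nuclei (433). Pcdh15 falls from 1227 to 44.1 CPM between them while Otof goes from 17.1 to 211 CPM, and Clrn1, Pls1 and Pdzd7 lie close together.

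Adgrv1 and Whrn, which meet in the ankle link complex, were both highest in Prdm12 subclusters. Adgrv1 stood at 563 CPM in n9, at 491 in n19 and at 488 in n27, and at 86.1 to 114 in the other Prdm12 subclusters. The SD ranges of n9 and n19 met, and n27 had too few nuclei per pool for an SD. When neurons were clustered at resolution 2 without the members and lists, the highest Adgrv1 group was another one, of 471 nuclei at 1028 CPM, which held 9.3% of n9 nuclei. n9 was led by Tac1 and Calca, which encode the neuropeptides substance P and CGRP, by Gfra3, a receptor of artemin, and by Adamts16 and Sytl3. The leading genes of n19 included Tafa1, Ccdc172, Ntm and ENSRNOG00000012428. n27, of only 57 nuclei, was led by Il31ra, ENSRNOG00000062489, Hs6st2, Pkhd1 and Osmr, of which Il31ra and Osmr form the interleukin 31 receptor. Over all Prdm12 subclusters Adgrv1 stood at 452 CPM against 27.6 in the other neurons. Among the other subclusters its highest level was 74.3 CPM, in n7.

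Whrn was high in the same subclusters and in n26, which was led by the cold channel Trpm8. Its level was 216 CPM in n27 (31 UMIs, interval 147 to 307), 87.6 in n19, 84.9 in n9 and 64.9 in n26, and 75.5 CPM over all Prdm12 subclusters against 4.79 in the other neurons. In each pool the Prdm12 subclusters stood above the other neurons, by 13.1 to 36.9 times for Adgrv1 and by 8.82 to 25.8 times for Whrn. For Adgrv1 the pool values were 476, 489 and 952 CPM in ML1 to ML3, 606, 411 and 405 in MR1 to MR3, 592, 318 and 644 in FL1 to FL3, and 424, 531 and 368 in FR1 to FR3. The 952 CPM of ML3 rested on 23 nuclei. For Whrn they were 80.9, 91.8 and 101, then 65.6, 64.6 and 75.8, then 35, 67.7 and 90.3, then 70.3, 64.3 and 80.1, in the same order, and the lowest, of FL1, rested on 12 UMIs and the highest, of ML3, on 10. Satellite glia (50.9 CPM) and Schwann cells (39.9 CPM) carried more Whrn than 21 of the 25 neuron subclusters, and neurons held 44.6% of its UMIs. A further 766 of its 2605 UMIs lay in 3692 nuclei of clusters left unnamed (27.8 CPM), whose Snap25 stood at 1583 CPM.

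Over the 25 subclusters the levels of Adgrv1 and Whrn had a Pearson correlation of 0.868 on log2(CPM + 5), the second highest for Adgrv1 among 8774 genes with at least 10 CPM in neurons. Outside the Prdm12 subclusters, Adgrv1 was highest in n7 (74.3 CPM), with Whrn at 4.29 CPM. Whrn was highest there in n14 (17.7 CPM), with Adgrv1 at 42.2 CPM. n14 was close to the cut for the Prdm12 subclusters, with Prdm12 at 16.1 CPM against 11.9 in all neurons. The subclusters come from the same libraries and differ in size and depth, and the correlation is a description. It was between 0.793 and 0.85 under the other clusterings, and 0.818 with all 7 genes left out at resolution 2. The genes most like Adgrv1 were St6galnac5, a sialyltransferase (0.916), Whrn, and Mdfic2 (0.866). Those most like Whrn were Nid2, a basement membrane protein (0.889), Kit, a receptor tyrosine kinase (0.876), and St6galnac5 (0.874). Both genes were seen together in 436 neurons, so that 47.5% of neurons with Whrn also had Adgrv1, against 12.8% of all neurons. Multiplying the shares of both genes within each subcluster gives 330 such neurons. Within n9, Adgrv1 was seen in 73.9% of nuclei with Whrn and in 60.6% of all, with medians of 4285 UMIs in nuclei with Whrn and 2577 in those without. In n26 the order was the other way, with Adgrv1 in 4 of 26 nuclei with Whrn (15.4%) and in 19.6% of all.

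**Figure D4:**
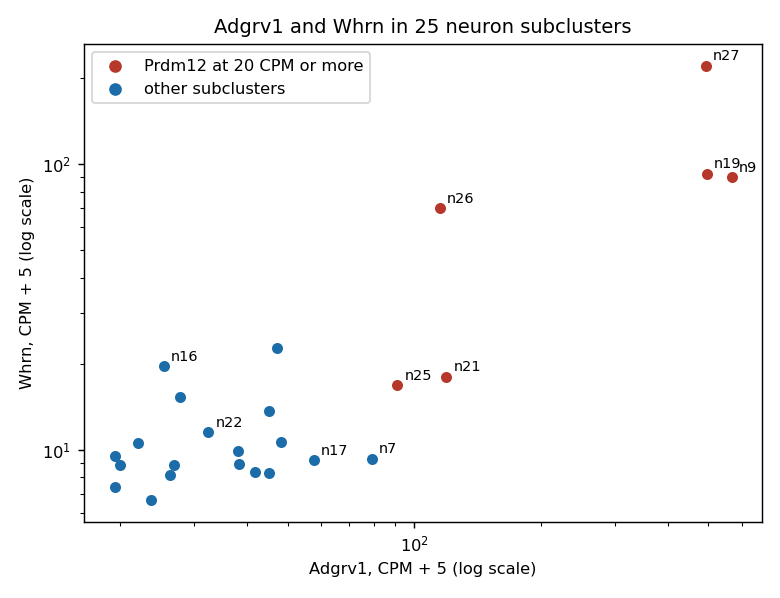
Adgrv1 (horizontal) against Whrn (vertical) in 25 neuron subclusters, both as CPM + 5 on log scales, with the 6 Prdm12 subclusters in red. n9, n19 and n27 lie at the upper right, with Adgrv1 at 488 to 563 CPM and Whrn at 84.9 to 216 CPM, while n21 and n25 have Adgrv1 at 86.1 to 114 CPM and little Whrn.

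Because these 2 genes were both highest in Prdm12 subclusters, the windows around their start sites are shown. They run from 250 bases before to 50 bases after the start. RefSeq gives them for the rat assembly GRCr8 (the submitters' processing notes name mRatBN7.2 for the counts). Adgrv1 lies on the minus strand at chr2:13647358-13647657 and Whrn on the minus strand at chr5:81927332-81927631. Capitals mark the letters GGGCGG, the core of a GC box, searched on both strands together with the TATA box, TATAAA, and with E-boxes of the letters CATATG, of the letters CAGCTG and of the letters CACGTG.
Adgrv1: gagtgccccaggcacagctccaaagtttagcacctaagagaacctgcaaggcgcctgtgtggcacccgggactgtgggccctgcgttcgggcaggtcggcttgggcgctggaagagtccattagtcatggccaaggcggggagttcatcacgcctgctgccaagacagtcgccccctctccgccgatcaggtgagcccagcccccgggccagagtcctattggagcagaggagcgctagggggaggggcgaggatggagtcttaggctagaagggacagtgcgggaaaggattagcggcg
Whrn: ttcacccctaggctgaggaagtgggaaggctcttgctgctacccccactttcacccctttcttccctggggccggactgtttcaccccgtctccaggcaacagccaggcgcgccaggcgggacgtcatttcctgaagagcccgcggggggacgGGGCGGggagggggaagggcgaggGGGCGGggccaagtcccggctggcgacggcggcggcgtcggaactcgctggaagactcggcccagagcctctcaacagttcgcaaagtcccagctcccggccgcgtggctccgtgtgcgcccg
The Whrn window held GGGCGG at 2 places and the Adgrv1 window held none of the 5 motifs. Among 33469 rat promoter windows of the same length, 33.1% held GGGCGG, and among the 7 genes the windows of Whrn, Otof and Cdh23 did. The share of G and C was 64% in the Adgrv1 window and 69.7% in that of Whrn, against a median of 51.7%.

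The closest patterns to the other members were measured over the same 25 subclusters. Otof was most like Hs6st1, a heparan sulfate sulfotransferase (r = 0.811), Armc9 (0.785) and ENSRNOG00000067595 (0.757). Pcdh15 was most like Rcsd1 (0.766), Sh3rf3 (0.752) and Pcsk5, a proprotein convertase (0.752). For Cdh23, Myo7a and Tmc1 the nearest genes were Lnx2 (0.731), Sh3rf3 (0.651) and Fra10ac1 (0.646), then Crnkl1 (0.819), Glipr2 (0.777) and Tpm3 (0.77), then Wrn (0.691), Zfp804b (0.615) and ENSRNOG00000068148 (0.606). With so few UMIs of these 3 genes, their correlations are no finding.

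Cdh23, the upper part of the tip link, was highest in n16, at 6.82 CPM from 21 UMIs. Neurons held 46.8% of its UMIs, and satellite glia (4.6 CPM) and Schwann cells (6.3 CPM) were above the 1.68 CPM of neurons. Tmc1, a pore subunit of the transduction channel, was highest in n17, a subcluster led by Pappa2, Csmd3, Nox4, Zmat4 and Brinp3, at 4.66 CPM from 10 UMIs in 6 pools. Myo7a had its highest value in n27 from a single UMI. At this depth Tmc1 and Myo7a cannot be assigned to a neuron type. For Cdh23 the 8 pools with 20 or more nuclei in the Pcdh15-rich part of n16 had 7.23 to 28.2 CPM there. The 12 pools had 1.11 to 2.56 CPM over all neurons. Pools FL1, FL2 and FR1 had fewer than 20 nuclei in this part and no Cdh23 UMI in all of n16. No pool had more than 3 Cdh23 UMIs in n16, so these values are also near the limit of detection.

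The wider hair-cell lists gave the setting of these genes. Of the tip link and transduction list 12 of 14 genes were in the gene list, and 3 of them (Pcdh15, Lhfpl5 and Myo1c) reached 10 CPM in neurons. Ush1c, a scaffold of the tip link's upper end, stood at 59.1 CPM in n17 against 3 CPM in all neurons, and Loxhd1 was also highest there (10.7 CPM). Tmc2, the channel relative of Tmc1, reached 13 CPM in n16 (40 UMIs). In the list of ankle link genes and genes of Usher syndrome types 2 and 3, Clrn1 stood at 125 CPM in n16 against 26.1 in all neurons. Of 33 genes of the 5 hair-cell lists with at least 1 CPM in neurons, 8 (24.2%) were highest in n16: Cdh23, Pcdh15, Tmc2, Pdzd7, Clrn1, Myo3b, Pls1 and Cabp1. Of all 13966 genes at that level 3.72% were highest in n16. The lists were chosen with earlier results of these data known and include members, so these shares are a description. In n16, Pdzd7, Cabp1 and Pls1 stood at 1.74, 2.5 and 2.98 times their level in all neurons. The others of the 8 stood at 3.78 to 13.8 times. Clrn1, Pls1 and Pdzd7 were shared by both parts of n16, at 117 and 133, 146 and 189, and 96.2 and 79.3 CPM in the Pcdh15-rich and other nuclei. Tmc2 had 11 UMIs (7.24 CPM) in the Pcdh15-rich nuclei and 29 (18.5 CPM) in the other nuclei. Myo3b had 30 and 4 UMIs, Cdh23 18 and 3, and Cabp1 stood at 293 and 158 CPM, in the same order.

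In the list of bundle actin genes, 15 of 16 were in the gene list and 5 met the rule for naming. The rule was at least 20 CPM and 3 times the level of all neurons in some subcluster. Of the 13966 genes with at least 1 CPM in neurons 12.6% met it, while the 15 list genes include 5 under 1 CPM. The list genes that met it were Eps8l2 in n25 (69.2 CPM), Eps8 (39.7) and Gpsm2 (37.9) in n18, Grxcr1 in n21 (21.7) and Xirp2 in n25 (20.3). Eps8, Gpsm2 and Xirp2 were higher outside neurons, at 88.7, 107 and 83 CPM. In the ribbon synapse list Cacna1d, the calcium channel that opens at hair-cell synapses, was highest in n8 (524 CPM), while Slc17a8, the glutamate transporter of inner hair cells, had 78 UMIs in all neurons and Cabp2 had 3. Among ferlins Dysf was broadly expressed (428 CPM), and Otof alone met the rule. The TMC family was represented mainly by Tmc3, at 335 CPM in neurons and 982 in n0. Of the mechanosensitive channels, Piezo2 reached 2450 CPM in n25, Kcnk2 303 in n8 and Piezo1 62.8 in n2.

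Genes that define hair cells had between 1 and 343 UMIs in all nuclei. Of 11 such markers, Atoh1 had 1 UMI, Barhl1 2, Ocm 4, Gfi1 15, Chrna9 20, Lhx3 23, Strc 27, Pou4f3 63, Slc17a8 93, Slc26a5 104 and Myo15a 343, and no nucleus held 3 or more of them. In the identity list, Calb2, a calcium-binding protein, met the rule for naming, at 126 CPM in n9.

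Left and right ganglia did not differ detectably in any of these genes that could be tested. Over all neurons, 23 of 13946 genes tested (0.165%) differed by side with edgeR's quasi-likelihood test at an adjusted p under 0.05, and none of the 5 of the 7 genes that passed the filter on low counts was among them. Tmc1 and Myo7a did not pass it. Otof stood at 42.6 to 62.7 CPM in left pools (median 54.3) and at 52.9 to 61.5 in right pools (median 57.4), which overlapped. Its log2 fold change, right over left, was 0.07 (SE 0.08, adjusted p = 0.919, edgeR). Pcdh15 changed by 0.12 (SE 0.15, adjusted p = 0.923), Adgrv1 by -0.34 (SE 0.27, adjusted p = 0.869), Whrn by -0.28 (SE 0.4, adjusted p = 0.934) and Cdh23 by -0.11 (SE 0.25, adjusted p = 0.962). The 95% interval was -0.11 to 0.24 for Otof and -0.21 to 0.45 for Pcdh15, and wider for Adgrv1 (-0.95 to 0.27) and Whrn (-1.18 to 0.62).

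By labelled sex, 39 genes (0.28%) were called and again none of the 7. Pcdh15 stood at 40 to 70.2 CPM in male-labelled pools (median 50) and 29.3 to 50.3 in female-labelled pools (median 40.2). The groups overlapped, and the log2 fold change, female-labelled over male-labelled, was -0.4 (SE 0.15, adjusted p = 0.188, edgeR). Without ML1 and FL1 it was -0.37 (adjusted p = 0.314, edgeR). Adgrv1 had -0.59 (SE 0.27, adjusted p = 0.278), Whrn -0.68 (SE 0.4, adjusted p = 0.397), Cdh23 -0.47 (SE 0.25, adjusted p = 0.307) and Otof -0.02 (SE 0.08, adjusted p = 0.925). Without ML1 and FL1 the values moved to -0.3 for Adgrv1, -0.25 for Whrn, -0.27 for Cdh23 and -0.07 for Otof. No gene (0%) was called for the interaction of side and labelled sex, with 546 at an unadjusted p under 0.05 by edgeR. For Pcdh15 the interaction was 0.54 (SE 0.25, adjusted p = 1, edgeR).

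The share of Prdm12 subclusters moved with the whole-neuron levels of Adgrv1 and Whrn. It was 24.9%, 13.3% and 1.61% of neurons in ML1 to ML3, 6.41%, 12.2% and 13.3% in MR1 to MR3, 3.26%, 21.3% and 5.04% in FL1 to FL3, and 6.93%, 2.73% and 11% in FR1 to FR3. ML1, with the largest share, had the highest whole-neuron levels of Adgrv1 (147 CPM) and Whrn (26.4 CPM). The share of Prdm12 subclusters did not differ detectably by side (exact permutation p = 0.54) or by labelled sex (exact permutation p = 0.425). Inside the Prdm12 subclusters the change by labelled sex was -0.15 for Adgrv1 (SE 0.23, adjusted p = 0.963, edgeR) and -0.13 for Whrn (SE 0.15, adjusted p = 0.938, edgeR). Without ML1 and FL1 it was -0.26 and -0.04, against -0.3 and -0.25 over all neurons. The part of the share in these changes was not tested. The Prdm12 subclusters themselves differ in Adgrv1, from 86.1 CPM in n25 to 563 in n9, and their mix differed between pools. n21, n25 and n26 made up 0% of neurons in ML3, and 4%, 1.57% and 1.73% in FL2. Changes inside the Prdm12 subclusters can therefore include this mix, and its part was not tested. The change by side inside the Prdm12 subclusters was -0.28 for Adgrv1 (SE 0.23) and -0.11 for Whrn (SE 0.15), both with an adjusted p of 1 (edgeR). In these subclusters 1 of 7913 genes (0.0126%) was called by labelled sex and none (0%) by side, with 245 at an unadjusted p under 0.05. DESeq2 called 1 by labelled sex and 0 by side.

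**Figure D5:**
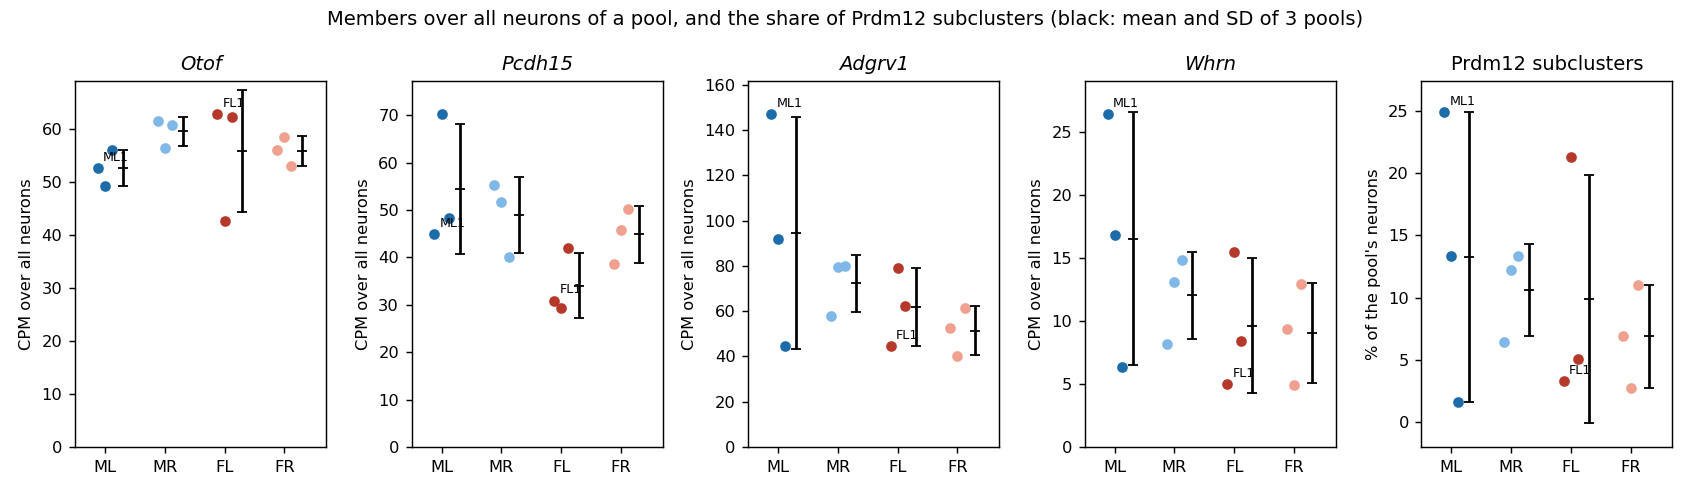
CPM over all neurons of a pool for Otof, Pcdh15, Adgrv1 and Whrn, and the percentage of the pool's neurons in Prdm12 subclusters, by group (ML, MR, FL, FR), with the mean and SD of 3 pools in black. ML1, at 24.9% Prdm12 neurons, is also the highest point for Adgrv1 (147 CPM) and Whrn (26.4 CPM), while Otof lies between 42.6 and 62.7 CPM in every pool.

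Within n7, Otof changed by -0.1 between sides (SE 0.1, adjusted p = 0.965) and by 0.1 between labelled sexes (SE 0.1, adjusted p = 0.968), by edgeR. In n7, 1 of 6333 genes (0.0158%) was called by side and none (0%) by labelled sex, where 346 had an unadjusted p under 0.05 and DESeq2 called 0. Within n16, Pcdh15 changed by 0.04 between sides (SE 0.25, adjusted p = 0.999) and Otof by 0.13 (SE 0.19, adjusted p = 0.999), by edgeR. By labelled sex Pcdh15 had -0.49 (SE 0.25, adjusted p = 0.672) and Otof 0.47 (SE 0.19, adjusted p = 0.419), by edgeR. Otof in n16 stood at 32 to 141 CPM in male-labelled pools and 105 to 166 in female-labelled pools, and Pcdh15 at 483 to 1069 and 345 to 670, so both overlapped. Without ML1 and FL1 the change by labelled sex was -0.46 for Pcdh15 (adjusted p = 0.594, edgeR) and 0.59 for Otof (adjusted p = 0.17, edgeR). The Pcdh15-rich part took 41.5% to 51.4% of n16 in male-labelled pools and 33.3% to 43.2% in female-labelled pools, and its part in these values was not tested. In n16, 17 of 5252 genes (0.324%) were called by labelled sex and none (0%) by side, where 217 had an unadjusted p under 0.05 and DESeq2 called 0.

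The shares of neurons in these subclusters were compared by a test that could not call 1 subcluster alone, since the smallest p of 0.005 adjusts to 0.125 over 25 subclusters. n7 made up 5.13% ± 1.12 of neurons in left and 5.35% ± 0.611 in right pools (SD, n = 6; exact permutation test, two-sided, p = 0.69, adjusted p = 0.821 over 25 subclusters). n16 made up 2.64% ± 0.742 and 3.1% ± 0.357 (exact permutation p = 0.22, adjusted p = 0.683). n9 made up 6.09% ± 4.82 and 4.01% ± 1.68 (exact permutation p = 0.365, adjusted p = 0.683). By labelled sex the adjusted p of all 3 was 0.96, from 400 relabellings.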

How the data were processed

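Single nuclei of nodose ganglia were counted in 8 sublibraries, and the deposited nucleus table names the pool of each nucleus. The authors deposited raw UMI counts per gene and nucleus. The submitters' processing notes name mRatBN7.2, R 4.3.2 and Seurat 4.1.3; the aligner is not given in the sources used here. A nucleus was kept if 300 or more genes were detected in it and mitochondrial transcripts made up no more than 5% of its UMIs. They were clustered with scanpy 1.11.5 and leidenalg 0.10.2 at resolution 1, on the most variable genes, among which were 5 members. The members, gene lists and markers were chosen with earlier results of these data known, and the rule that names neuron clusters was settled after the clusters were seen. A doublet caller marked 2 nuclei, which were removed, and so did not work, and an alternative left out the 1817 nuclei with the highest scores.

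Counts were summed per pool and tested with edgeR 4.0.16 (quasi-likelihood, Benjamini-Hochberg over all genes tested, R 4.3.3). The fits were tested on simulated data. DESeq2 1.42.0 and limma 3.58.1 were alternatives. Shares were compared by two-sided exact permutation over pools within the other factor. Counting intervals are exact at 95% and, like the per-pool depths of 7139364 to 19456287 UMIs, cover counting error only. Named genes were the members, the 3 genes most like each, and list genes with at least 20 CPM and 3 times the level of all neurons in some subcluster. Other list genes were named after their values were seen. Results for some genes are not reported here.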

Additional observations from a re-analysis of the deposited data

Results flagged for a closer look

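Of 48 groups of 6 pools checked for a pool far from the rest, 2 held one, and chance flags about 1 in 20. Tmc1 over all neurons was highest among left pools in ML2, at 1.56 CPM against a median of 0.936. Adgrv1 in the Prdm12 subclusters was highest among male-labelled pools in ML3, at 952 CPM against a median of 482, and ML3 had 23 such nuclei with 94 Adgrv1 UMIs. The Prdm12 subclusters n21, n25 and n26, with less Adgrv1 than n9, made up 0% of ML3 neurons. The part of this mix in the value was not tested.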

How the results depend on the processing

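None of the 370 alternative values of the members' 20 changes by side or labelled sex had an adjusted p under 0.05. The smallest was 0.0561, for Pcdh15 by labelled sex in neurons, and 11 values changed sign. These were Cdh23 and Whrn by side in neurons without ML1 (both 0.03), Otof by labelled sex in neurons without MR3 (0.01), FL2 (0.04) or FR3 (0.01), Otof by side in n16 without MR1 (-0.01), and Pcdh15 by side in n16 without ML1 (-0.03), FL1 (-0.06), FL2 (-0.01), FR3 (-0.04) or both ML1 and FL1 (-0.17). With 1 pool left out, the ranges were -0.3 to 0.03 for Cdh23 and -0.48 to 0.03 for Whrn by side in neurons, -0.07 to 0.04 for Otof by labelled sex in neurons, and -0.06 to 0.2 for Pcdh15 and -0.01 to 0.28 for Otof by side in n16. The cause was not tested.

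Counts of all genes called moved more. By side in neurons DESeq2 called 70, no filter on low counts gave 46, leaving out 1 pool 6 to 34, and leaving out ML1 and FL1 3. By labelled sex in neurons DESeq2 called 458, limma 4, no filter 265, leaving out 1 pool 0 to 656, leaving out nuclei with high doublet scores 20, and first-level clustering at resolution 2 gave 70. By side in n7 DESeq2, limma and leaving out ML1 and FL1 each gave 0, no filter 3, and leaving out 1 pool 0 to 7. By labelled sex in n7 leaving out 1 pool gave 0 to 4, and leaving out ML1 and FL1 10. By side in n16 no filter gave 1 and leaving out 1 pool 0 to 1. By labelled sex in n16 DESeq2 gave 26, limma 10, no filter 29, leaving out 1 pool 4 to 45, and leaving out ML1 and FL1 60. By labelled sex in the Prdm12 subclusters limma and leaving out high doublet scores gave 0, no filter 15, leaving out 1 pool 0 to 17, and leaving out ML1 and FL1 33. The cause was not tested.

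Deviations of left and right pools with equal replicate numbers had correlations between -0.08 and 0.16 in neurons. There 1 of 6 left pools correlated best with its own number. In n16 the correlations lay between -0.06 and 0.05, and 4 of 6 left pools correlated best with their own number. The correlations were taken within labelled sex, which Y-linked transcripts contradict in ML1 and FL1. They cannot decide whether equal numbers mark the same rats. With a replicate block 17 genes were called by side in neurons, 3 in n7 and 1 in n16.

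Differences in shares, in percentage points, also changed sign. For n7 by side they ran from -0.119 to 0.563 with 1 pool left out. By labelled sex they ran from -0.309 to 0.373 for n7, from -0.381 to 0.166 for n16 and from -3.29 to -0.403 for n9. Without ML1 and FL1 they were -0.489, 0.0023 and 0.457.

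At resolution 2 the highest Pcdh15 level was 1309 CPM (308 nuclei) and the highest Adgrv1 level 926 CPM (849 nuclei). With members and lists also left out they were 1227 and 1028 CPM, and the Adgrv1 group (471 nuclei) then held 9.3% of n9 nuclei, so that n9 was no longer the highest for Adgrv1. Depth limits Cdh23, Tmc1 and Myo7a most.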

Other observations

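Pcdh15 inside the Prdm12 subclusters differed by -0.4 on the log2 scale, female-labelled over male-labelled (SE 0.19, adjusted p = 0.705, edgeR). Within n7, Adgrv1 was seen in 241 nuclei, and 63.5% of these also had Otof, against 51% of all n7 nuclei, with medians of 3364 UMIs in nuclei with Adgrv1 and 2473 in those without. In skeletal muscle nuclei, which numbered 217, Cdh23 had 8 UMIs (25.2 CPM).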
